A study of Mus musculus with 3 samples.

Results

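To describe how Tra2β contacted the 3' untranslated regions (3' UTRs) of coding transcripts in the testis, crosslinks of 3 iCLIP libraries were counted over the 3' UTR of each protein-coding gene. A 3' UTR was taken as the bases after the stop codon of the canonical transcript (GENCODE vM39, GRCm39), without bases that are coding sequence (CDS) in any transcript on the same strand. Of 21770 protein-coding genes, 20820 kept at least 1 such base and form the set described here. These 3' UTRs had a median length of 1064 nt (quartiles 368 and 2301 nt), 859 of them had an intron inside the 3' UTR, and 623 shared bases with an exon of another gene on the same strand. The 3 libraries make up 1 group, biological triplicates from testes of wild type adult mice, labelled as mixed cells. The germ cells had been released from the testes by mincing before ultraviolet crosslinking, and Tra2β had been pulled down with a polyclonal antibody. Each unique cDNA in iCLIP ends where reverse transcription met the peptide left on the RNA, and is called a crosslink below. The values are not set against an input, an IgG control or cells that lack Tra2β, none of which was analysed here. Instead, 3' UTRs were compared with other regions of the same annotated transcripts within each library.

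Sequences after the stop codon are known as the place where proteins and microRNAs set the stability, the location and the translation of an mRNA. Spermatids rely on this, since transcription stops as their chromatin is packed, and the mRNAs of protamines and transition proteins are stored until they are translated. Tra2β itself is known as a nuclear splicing regulator of the SR family that binds purine-rich sequence inside exons, with AGAA as the core of its motif.

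The stretches below show where crosslinks gathered in the most heavily contacted 3' UTRs. Each is the 30 nt window with the most crosslinks among windows hit in all 3 libraries, written 5′ to 3′ on the strand of the gene, with the bases of each AGAA in capitals.
Akap12: tatgtatttatatgtatgttttatgtagtc
Tsbp1: tgtgatctccccatcagatacaagccgcat
Ybx3: ttttttcctggtttttactgttttggtaat
Cylc2: gaAGAAGAAGAAGAAgttgtactgggctat
Clec2m: ctttgtgaccttgaAGAAtccatggaggtt
Lyar: ctctgtggcttcacactctgtcatcctatt

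The Akap12 window (chr10:4308789-4308818, plus strand, GRCm39) starts 294 nt from the stop codon in a 3' UTR of 975 nt and held 39, 1 and 72 crosslinks in replicates 1, 2 and 3. It contains no AGAA, and U (T in the genome sequence) makes up 56.7% of its bases. The Tsbp1 window (chr17:34679480-34679509, plus strand) held 30, 3 and 62 crosslinks, and the Ybx3 window (chr6:131342081-131342110, minus strand) held 10, 1 and 21. The Cylc2 window (chr4:51232339-51232368, plus strand) has 4 overlapping copies of AGAA and held 6, 1 and 14. In Clec2m the window (chr6:129299246-129299275, minus strand) has 1 copy and held 8, 2 and 20 crosslinks. In Lyar the window (chr5:38391472-38391501, plus strand) starts 3 nt from the stop codon and held 20, 1 and 64 crosslinks, 55.2% of all crosslinks of that 3' UTR. In Akap12, Tsbp1, Ybx3 and Lyar the leading window had no AGAA, and in Cylc2 and Clec2m it had at least 1. The leading windows of Clgn, Calr and Slc2a3, also among the most heavily contacted 3' UTRs but not shown as sequence, had no AGAA either.

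The libraries held 348033, 619571 and 488719 crosslinks, and a count of 0 allows up to 3 crosslinks. Markers of testis cells were present in the libraries. All 8 spermatid markers and all 6 spermatocyte markers had crosslinks, spermatid markers summed to 1991, 282 and 2490 CPM (crosslinks scaled to a common library total), and the 3 liver markers were at 0 in every library. Sertoli cell markers summed to between 30.7 and 37.4 CPM and Leydig cell markers to between 38.7 and 97.7 CPM, so RNA of somatic cells was present too. Replicate 2 stood apart from the others in much of what follows, and its values are therefore given separately. Intervals for the share in a single library are 95% Clopper-Pearson intervals and cover counting error only.

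The first question was how much of the contact fell in 3' UTRs. With each base counted once, 3' UTRs held 5.03%, 1.74% and 6.31% of crosslinks in replicates 1, 2 and 3, a mean of 4.36% ± 2.36 (SD, n = 3). The 95% intervals ran from 4.96% to 5.11%, from 1.70% to 1.77% and from 6.24% to 6.38%. Replicate 2 was lowest, and the 3 intervals did not overlap. Per kb of 3' UTR these were 0.523, 0.322 and 0.922 crosslinks, against 2.04, 1.86 and 4.14 per kb of CDS. The 3' UTR was therefore less densely crosslinked than the CDS in all 3 libraries, at 0.256, 0.173 and 0.223 of its density (0.217 ± 0.042, SD, n = 3). Compared with the 5' UTR the density was 0.662 ± 0.092 times as high. Compared with introns of the same transcripts it was higher, 3.99-fold, 1.36-fold and 6.05-fold in replicates 1, 2 and 3. Compared with the 500 nt that follow the annotated 3' end outside any annotated gene it was 7.65-fold, 2.18-fold and 12.2-fold higher. No test was run on these shares, since 3 libraries of 1 group are too few for a permutation test to reach the threshold of 0.05.

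Most 3' UTRs had few or no crosslinks. In the 3 libraries together 11613 of 20820 (55.8%) had 0, which is within what up to 3 counts would allow, 9207 had at least 1, 1631 had at least 10 and 318 had at least 30. Crosslinks were seen in all 3 libraries in 2650 3' UTRs. The leading 100 held 15.96% of the 60514 crosslinks and the leading 1000 held 51.6%. Of 55854 crosslinked positions only 25 were shared by all 3 libraries, so single positions carry little depth. Across the 20820 members Spearman's rho of the counts was 0.655 between replicates 1 and 3 and 0.505 and 0.505 between replicate 2 and each of the others, as a description of values that share transcript length and library depth.

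The 10 3' UTRs with the highest mean level, of which 9 are named, belonged to genes of several functions. Akap12, a scaffold that anchors protein kinase A, led with 271, 12 and 608 crosslinks in replicates 1, 2 and 3, or 779, 19.4 and 1244 CPM. It was followed by Tsbp1, a basic protein of the testis, with 91, 10 and 236 crosslinks. Ybx3, a cold shock protein that binds stored mRNA in germ cells, had 68, 5 and 156 crosslinks. Cylc2, a cytoskeletal protein of the sperm head whose 3' UTR lies in 5 blocks, had 77, 14 and 120. The chaperones of the endoplasmic reticulum Clgn, which is made in germ cells, and Calr had 52, 7 and 150 and 35, 1 and 130 crosslinks. Clec2m, of the C-type lectin family, had 59, 9 and 134. The nucleolar protein gene Lyar had 29, 4 and 121 crosslinks, and the glucose transporter gene Slc2a3 had 67, 6 and 66.

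In each of these 10 the CPM in replicate 2 lay below both other libraries, by 9.79-fold to 62.3-fold against replicate 1 and by 10.9-fold to 165-fold against replicate 3. The same 10 held 4.52% of 3' UTR crosslinks in replicate 1, 0.654% in replicate 2 and 5.85% in replicate 3. The 10 were chosen by their mean over these same libraries, so the contrast with replicate 2 depends in part on that choice. Replicates 1 and 3 shared 7 of their own 10 leading 3' UTRs, replicates 1 and 2 shared 1, and replicates 2 and 3 shared 0. These levels reflect RNA abundance as well as contact. More cells of a type, more RNA per cell and more contacts per RNA cannot be told apart in them.

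**Figure D1:**
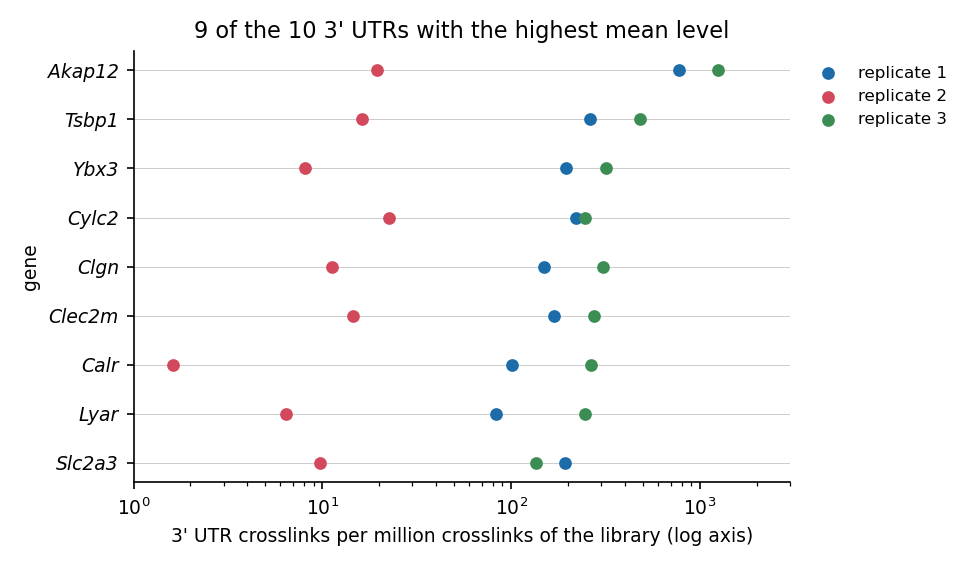
Level of the 3' UTR in CPM (log axis) for 9 of the 10 genes with the highest mean, 1 point per library. In every gene shown the point of replicate 2 lies to the left of those of replicates 1 and 3.

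Next the 3' UTR was compared with the CDS of the same annotated transcript, gene by gene. Crosslinks were assigned by genomic position, so the RNA that gave each cDNA was not known. The 5401 genes tested had at least 10 crosslinks in the 2 regions together. At equal density per nt as the starting point, 1515 genes (28.1%) had a less dense 3' UTR and 35 (0.648%) a denser one (edgeR quasi-likelihood test with the library as a block, Benjamini-Hochberg adjusted p under 0.05). The median log2 ratio of 3' UTR over CDS was -1.58 (quartiles -2.77 and -0.62), and 659 genes (12.2%) had a ratio above 0. In 3209 genes the 3' UTR was the less dense region in all 3 libraries and in 141 it was the denser one in all 3. Among the genes tested 506 had no crosslink in the 3' UTR, and 151 of these were among the genes called lower. The count of calls rested on all 3 libraries: with replicate 1 left out 2 and 198 genes were called denser and less dense, and with replicate 2 or replicate 3 left out none was, although 1450 and 923 genes had an unadjusted p under 0.05. By DESeq2 on the same counts 8 genes were denser and 928 less dense.

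**Figure D2:**
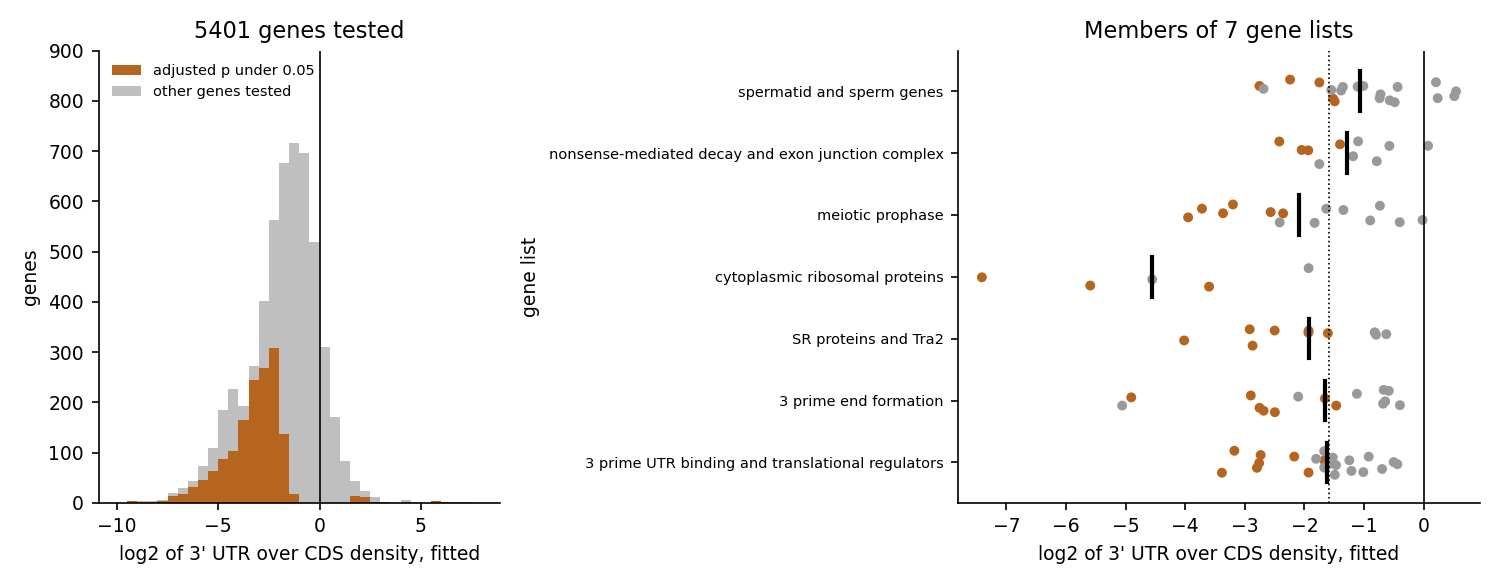
Left, distribution of the fitted log2 ratio of 3' UTR over CDS density for the 5401 genes tested, with genes at an adjusted p under 0.05 in brown. Right, the members of 7 gene lists that could be tested, 1 point per gene in the same colours, with the median of each list as a bar and the median of all genes tested (-1.58) as a dotted line. In each list most of the points lie below 0.

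The 35 denser 3' UTRs were fewer than they seem. Among them were 18 γ-protocadherin genes, which encode cell adhesion proteins and use the same 3' exons. They therefore gave 1 observation, 7, 8 and 19 crosslinks over a shared 3' UTR of up to 1832 nt, counted 18 times. When the CDS of the exon with the stop codon was the reference, the log2 ratio of Pcdhga9 and Pcdhga4 turned from 2.24 and 2.23 to -0.80 in both. Among the other 17 genes, the highest ratios belonged to Tfcp2l1, Rnf225 and Lars2. The 3' UTR of Tfcp2l1, a transcription factor gene, had 3, 76 and 4 crosslinks against 0 in the CDS, at least 5.15-fold denser by the limit of 3 counts over the libraries. Of these 83 crosslinks 75, all in replicate 2, lay in a small nuclear RNA gene that the annotation places inside the 3' UTR (Gm23497, chr1:118609551-118609680). In Rnf225 the 3' UTR had 6, 40 and 12 crosslinks against 0, at least 8.86-fold denser, and 54 of the 58 lay in the small nuclear RNA gene Gm26325 (chr7:12664701-12664807). Lars2, which encodes the mitochondrial leucyl-tRNA synthetase, had 6, 47 and 11 crosslinks in its 3' UTR of 986 nt against 0, 1 and 1 in its CDS of 2709 nt (log2 ratio 6.03 ± 0.90, SE, adjusted p = 1.69e-09). Without replicate 2 the adjusted p was 0.412 for Tfcp2l1, 0.191 for Rnf225 and 0.0871 for Lars2, and with DESeq2 it was 0.102 for Tfcp2l1. None of the 5401 genes tested was called without replicate 2, so that loss is not particular to these genes. In Lars2, for 21 of the 64 crosslinks the next 30 nt occurred more than once in the genome, and for 30 the next 20 nt did. Whether these cDNAs came from the Lars2 mRNA or from another copy of the sequence was not tested. The windows with the most crosslinks in Rnf225, in Lars2 and in 1 other gene, Scarb1, are shown, the first 2 for their high ratios and Scarb1 as a called gene without a crosslinked small RNA gene in its 3' UTR. They were chosen after their values were seen, and AGAA is again in capitals.
Rnf225: agcacgtatactaaaattggaacgatacag
Lars2: cAGAAaagttaccacagggataactggctt
Scarb1: gAGAAattttatcatcttttgaaaggaagt

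The Rnf225 window (chr7:12664715-12664744, plus strand) held 4, 27 and 9 crosslinks and the Lars2 window (chr9:123291010-123291039, plus strand) held 5, 18 and 8. The 5 other named genes with a denser 3' UTR, which hold no crosslinked small RNA gene, are given next. Dmrtb1, a transcription factor that guides spermatogonia into meiosis, had 7, 1 and 11 crosslinks in the 3' UTR and 4, 0 and 1 in the CDS (log2 ratio 2.43 ± 0.89, SE, adjusted p = 0.0259). Scarb1, the receptor that delivers cholesterol from high density lipoprotein, had 11, 4 and 13 against 4, 4 and 4 (2.32 ± 0.71, adjusted p = 0.00619), and its window (chr5:125354189-125354218, minus strand) held 3, 2 and 3. Wipf3, an actin regulator, had 8, 4 and 8 against 0, 0 and 1, and Zmiz1, a transcriptional coregulator, had 4, 11 and 4 against 1, 0 and 1. In Fundc2b 11, 2 and 13 crosslinks stood against 0, at least 2.85-fold denser. The naming rule required the 3' UTR to be the denser region in all 3 libraries, which 15 of the 17 genes met. For Fundc2b the next 30 nt occurred more than once in the genome at 3 of the 26 crosslinks, and Wipf3 had an adjusted p of 0.0503 once crosslinks in repeated sequence were left out. The calls of these 5 genes were fragile. Each was lost with any 1 library left out (edgeR adjusted p between 0.0845 and 0.50). With replicate 2 or replicate 3 left out no gene tested was called, so those lost calls are not particular to these 5 genes. Dmrtb1, Wipf3 and Zmiz1 also lost theirs with DESeq2 (0.115, 0.148 and 0.163), with no filter on low counts (0.0530, 0.0766 and 0.0610) and with no replicate block (0.0755, 0.0700 and 0.0749). Scarb1 lost its call with no replicate block (0.0528), and against the CDS of the stop codon exon its log2 ratio was 0.79 (adjusted p = 0.68). Against that exon Dmrtb1 and Zmiz1 were not called either (0.39 and 0.65).

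At the other end, the 10 lowest ratios all belonged to 3' UTRs without a crosslink, so only a bound can be given. With the limit of 3 counts over the libraries the bounds ran from 1.55-fold to 69.3-fold lower than the CDS. Each bound takes the annotated 3' UTR as part of the RNA in these cells, which was not measured. Spata33, which encodes a protein of the sperm midpiece, had 94, 9 and 174 crosslinks in its CDS and 0 in a 3' UTR of 191 nt, at least 44.2-fold lower. Ddi1 had 21, 1 and 51 in the CDS and 0 in a long 3' UTR of 2408 nt, at least 47.8-fold lower. The deubiquitinase gene Usp9x had 32, 23 and 56 in the CDS and 0 over 3845 nt of 3' UTR, at least 18.6-fold lower, and Eef1d, a subunit of the elongation factor that recharges eEF1A, had 37, 15 and 54 against 0, at least 23.3-fold lower. Agtpbp1, a deglutamylase of tubulin, had 32, 16 and 73 against 0, at least 5.92-fold lower.

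Because most 3' UTRs were below their CDS, a second comparison asked which departed from the overall ratio of the library, which was 0.274, 0.178 and 0.245 in the genes tested. Relative to that, 374 3' UTRs (6.92%) were denser and 189 (3.5%) less dense by the same edgeR test. The split depends on the centre that is chosen: with TMM factors in place of the overall ratio 108 were denser and 528 less dense. The denser ones had a median of 19.5 crosslinks in the 3' UTR and 21 in the CDS, the less dense ones 6 and 76. The less dense ones were also longer, with a median of 3072 nt against 1251.5 nt for the denser ones. Rnf144b, a ubiquitin ligase gene, was among the highest, with 7, 12 and 11 crosslinks in the 3' UTR and 0, 0 and 1 in the CDS (log2 ratio 4.68 ± 0.95, SE, adjusted p = 6.04e-05). Among the lowest were the ribosomal protein gene Rpl4, with 22, 10 and 54 crosslinks in the CDS and 0 in the 3' UTR (at least 14.04-fold lower), the nuclear exonuclease gene Xrn2 with 16, 15 and 35 against 0 (at least 9.65-fold) and the chromatin gene Asxl1 with 15, 30 and 30 against 0 (at least 10.6-fold).

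The list of genes expressed in spermatids had a higher median ratio than all genes tested, at a level close to that of short 3' UTRs in general. All 20 members of this list had 3' UTR crosslinks and could be tested. At equal density 0 were called denser and 5 less dense (0.648% and 28.1% over all genes tested), with a median log2 ratio of -1.06 against -1.58 over all genes tested, and relative to the overall ratio 5 were denser and 0 less dense (6.92% and 3.5% over all), with a median of 0.98 against 0.46. Prm1, the first protamine that replaces histones in sperm, had 24, 14 and 58 crosslinks in only 145 nt of 3' UTR and 33, 14 and 34 in its CDS (log2 ratio 0.24 ± 0.51, SE, adjusted p = 0.75). Smcp, a protein of the mitochondrial capsule of sperm, had 32, 3 and 57 against 37, 11 and 79 (0.21 ± 0.52, adjusted p = 0.79). The transition proteins, which bind DNA between histones and protamines, were called less dense. Tnp1 had 34, 2 and 65 in the 3' UTR against 116, 21 and 210 in the CDS (-1.52 ± 0.51, adjusted p = 0.0144), and Tnp2 had 32, 1 and 70 against 164, 30 and 319 (-1.49 ± 0.51, adjusted p = 0.0172). The 5 denser ones relative to the overall ratio were Prm1, Prm2, Smcp, Odf1, an outer dense fibre protein of the tail, and Pgk2, the glycolytic enzyme of sperm. The median 3' UTR length in this list was 166 nt against 1064 nt over all members, and the 575 genes tested with a 3' UTR of up to 200 nt had medians of -1.19 at equal density and 0.85 relative to the overall ratio.

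Among genes whose products bind 3' UTRs or regulate translation, 22 of 24 members could be tested, 0 were denser and 8 less dense (0.648% and 28.1% over all genes tested), and the median log2 ratio was -1.63 against -1.58 over all. Fxr1, an RNA binding protein that activates stored mRNA in spermatids, had 12, 2 and 29 crosslinks in the 3' UTR against 187, 28 and 356 in the CDS (-3.38 ± 0.56, SE, adjusted p = 7.45e-08). In replicates 1 and 3 all 12 and 29 lay between the stop codon and the middle of its 3' UTR, and in replicate 2 both crosslinks lay beyond the middle. Caprin1, of RNA granules, had 6, 5 and 11 against 15, 11 and 63 (-2.73 ± 0.60, adjusted p = 9.11e-05), and Cpeb4, which binds cytoplasmic polyadenylation elements, 7, 4 and 10 against 6, 16 and 14 (-1.67 ± 0.65, adjusted p = 0.0382). For Celf1, which promotes decay through GU-rich elements, 9, 9 and 7 in a 3' UTR of 6132 nt stood against 1, 4 and 5 (-0.70 ± 0.77, adjusted p = 0.51).

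Factors that form the 3' end of mRNA gave 0 denser and 7 less dense among 15 tested (0.648% and 28.1% over all), with a median of -1.65. Papolb, the cytoplasmic poly(A) polymerase of the testis, had 21, 4 and 67 crosslinks in its 3' UTR against 50, 11 and 172 in the CDS (-1.47 ± 0.52, SE, adjusted p = 0.0213). Pabpn1, the nuclear poly(A) binding protein, had 12, 12 and 26 against 11, 39 and 22 (-0.40 ± 0.54, adjusted p = 0.61) and was called denser relative to the overall ratio (log2 1.73 ± 0.47, adjusted p = 0.00625). Rbbp6, a ubiquitin ligase of the cleavage complex, had 8, 0 and 24 in a 3' UTR of only 427 nt against 105, 121 and 259 in the CDS (-0.58 ± 0.56, adjusted p = 0.45), and was the other member called denser relative to the overall ratio (log2 1.55 ± 0.54, adjusted p = 0.0431).

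Among SR proteins and the Tra2 paralogues, the family of Tra2β itself, 0 were denser and 7 less dense of 10 tested (28.1% over all), with a median of -1.93. Srsf1 had 18, 24 and 23 crosslinks in a 3' UTR of 4110 nt against 9, 16 and 22 in the CDS (-1.93 ± 0.55, SE, adjusted p = 0.00331). Srsf11 had 15, 1 and 45 against 27, 63 and 59 (-1.61 ± 0.54, adjusted p = 0.0145). Srsf6 had 4, 6 and 10 against 11, 17 and 14 (-2.87 ± 0.64, adjusted p = 1.02e-04). Tra2b and its paralogue are given as the genes of the protein studied and its closest relative. The 3' UTR of Tra2b had 1, 3 and 8 crosslinks against 0, 3 and 6 in its CDS (-0.80 ± 0.92, adjusted p = 0.54), and that of Tra2a had 1, 1 and 6 against 6, 17 and 9 (-1.93 ± 0.75, adjusted p = 0.0397).

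Nonsense-mediated decay, the pathway that destroys mRNA with a stop codon too far from the end, gave 0 denser and 4 less dense of 10 tested (28.1% over all), with a median of -1.29. Smg1, its kinase, had 8, 5 and 25 crosslinks in the 3' UTR against 66, 57 and 108 in the CDS (-1.40 ± 0.53, SE, adjusted p = 0.0318). Upf3a had 4, 1 and 20 against 61, 22 and 137 (-2.42 ± 0.58, adjusted p = 3.95e-04), with every 3' UTR crosslink before the middle of the 3' UTR. For Upf2 18, 3 and 15 stood against 42, 50 and 87 (-0.78 ± 0.54, adjusted p = 0.27). Genes of meiotic prophase gave 0 denser and 6 less dense of 14 tested (28.1% over all), with a median of -2.09. Syce1, of the synaptonemal complex, had 10, 1 and 17 against 20, 18 and 56 (-1.34 ± 0.58, adjusted p = 0.0632), and the cohesin subunit gene Stag3 had 6, 0 and 9 against 43, 39 and 65 (-0.02 ± 0.61, adjusted p = 0.99), with Stag3 called denser relative to the overall ratio (log2 2.09 ± 0.62, adjusted p = 0.0152). Among the 3' UTRs of cytoplasmic ribosomal proteins 17 of 86 had any crosslink, 27 crosslinks in all, against 9207 of 20820 over all members. These 3' UTRs had a median length of 195 nt against 1064 nt over all. Of the 5 that could be tested 0 were denser and 3 less dense (28.1% over all).

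The third question was where along the 3' UTR the crosslinks lay. In 11649 transcripts with at least 500 nt on both sides of the stop codon, the density in the last 50 nt of the CDS was 1.54, 0.98 and 3.22 per kb in replicates 1, 2 and 3 and in the first 50 nt of the 3' UTR 1.28, 0.58 and 2.71 per kb. By 450 to 500 nt into the 3' UTR it had reached 0.58, 0.41 and 1.06 per kb. The 3' UTR was thus densest next to the stop codon and thinned out along its length in all 3 libraries. The course on the CDS side differed between libraries. Replicate 2 already declined over the last 200 nt of CDS, from 1.49 per kb at 250 to 200 nt before the stop codon to 0.98, while replicates 1 and 3 kept to between 1.499 and 1.54 and between 2.89 and 3.22 per kb over those bins. Over the 100 nt on either side of the stop codon, 3' UTR over CDS was 0.809, 0.503 and 0.850, well above the ratio over whole regions.

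At the other end, in 8519 transcripts with no annotated gene in the next 500 nt, the density was 0.296, 0.160 and 0.540 per kb at 100 to 50 nt before the annotated 3' end, 0.106, 0.148 and 0.200 per kb in the last 50 nt, and 0.073, 0.092 and 0.063 per kb in the 50 nt after it. Replicate 2 had the lowest density of the 3 in every bin of the 3' UTR up to 50 nt before its end, and the highest one downstream of it. These densities were not scaled to the library totals, and replicate 2 held the most crosslinks (619571). Its top rank downstream therefore does not hold in every bin at equal depth.

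**Figure D3:**
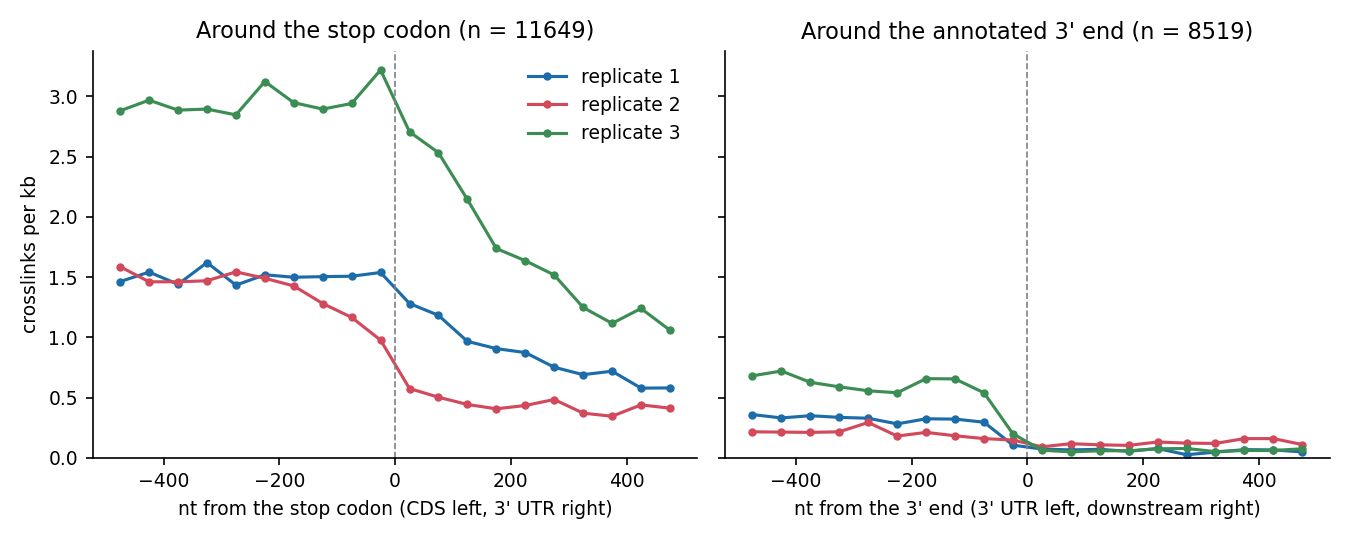
Crosslinks per kb in bins of 50 nt around the stop codon (left, 11649 transcripts) and around the annotated 3' end (right, 8519 transcripts), 1 line per library. The density declines from the stop codon onwards and reaches its lowest level downstream of the 3' end.

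With each 3' UTR divided into 10 bins of equal length, the decline ran through the whole 3' UTR. From the first to the last bin the density went from 1.09 to 0.243 per kb in replicate 1, from 0.511 to 0.205 in replicate 2 and from 2.21 to 0.394 in replicate 3, a ratio of 4.20 ± 1.58 (SD, n = 3). Each bin was below the one before it in replicate 3, and in replicate 1 as well, while in replicate 2 the fifth and the eighth were slightly above the bin before them. Across the CDS of the same transcripts the first and last bins had 1.86 and 2.04, 1.69 and 1.57, and 3.84 and 4.04 crosslinks per kb, and the bins between lay close to these. The number of AGAA did not follow the decline. It was 7.25 per kb in the first bin, between 7.03 and 7.20 in the next 8 and 6.65 in the last.

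Gene by gene, the 3' UTR was divided at its middle, and the part next to the stop codon (the proximal part) was compared with the distal part in 1531 3' UTRs of at least 400 nt with at least 10 crosslinks. The proximal part was the denser one in 1218 of them (79.6%), with a median log2 ratio of 0.90 (quartiles 0.13 and 1.99). No single gene passed the test, 0% in favour of the proximal part and 0% in favour of the distal part (edgeR, smallest adjusted p = 0.0902), although 368 had an unadjusted p under 0.05. The counts per 3' UTR were low for this test, and 194 of the 1531 had no crosslink in replicate 2. With DESeq2 14 were called for the proximal part and 1 for the distal part, with an exact binomial test required in each library 1 and 0, and edgeR limited to the 299 3' UTRs with at least 30 crosslinks called 74 and 1. Of these 75 calls, 12 had no crosslink in the distal part and 58 were denser in the same part in all 3 libraries. St6galnac2 was counted 2 times, here and with DESeq2, since 2 gene entries of that name had the same counts, 15, 6 and 30 against 0, 1 and 0.

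The examples with the strongest contrast, chosen after their values were seen, came from genes of unrelated function. Tax1bp1, an autophagy receptor, had 27, 2 and 39 crosslinks in the proximal part and 0 in the distal part, at least 22.7-fold denser. Arl4a, a small GTPase, had 12, 5 and 43 against 0 over a distal part of 3147 nt, at least 20.01-fold. Spa17, a sperm surface protein, had 19, 1 and 38 against 0, at least 19.4-fold. Hspa5, the main chaperone of the endoplasmic reticulum, had 19, 0 and 46 against 0, at least 21.7-fold, with nothing in replicate 2. Pabpn1 had 11, 11 and 24 in the proximal part and 1, 1 and 2 in the distal part (log2 ratio 3.40 ± 0.55, SE), and the chromatin protein gene Psip1 had 22, 1 and 66 against 4, 0 and 4 (3.31 ± 0.56). The kinases of SR proteins Srpk1 and Srpk2 had 11, 1 and 54 against 2, 0 and 5 (3.09) and 11, 5 and 39 against 2, 1 and 4 (2.82). The 1 case for the distal part was Rnf225, where that part holds the small nuclear RNA gene.

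Where transcripts end in these cells was not measured, so any annotated 3' UTR beyond the end in use counts as 3' UTR without crosslinks. A poly(A) signal allows a rough look at this. Around the first AATAAA found at least 200 nt into the 3' UTR (7894 3' UTRs, median of 725.5 nt after the stop codon), the 200 nt that begin 50 nt after the hexamer had 0.513, 0.879 and 0.416 of the crosslinks in the 200 nt before it. Around the 5 other hexamers made of 5 A and 1 T the values were between 0.566 and 0.776 in replicate 1, between 0.882 and 0.974 in replicate 2 and between 0.529 and 0.704 in replicate 3. In all 3 libraries AATAAA gave the lowest of the 6 values, by a small margin in replicate 2. The other common poly(A) signal, ATTAAA, did not stand below them, with 0.784, 0.918 and 0.567 (6818 3' UTRs).

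The length of the 3' UTR went with its density relative to the CDS in replicates 1 and 3. The density itself was lower in the longest than in the shortest class in all 3 libraries. It was 1.82, 0.491 and 3.99 per kb in 3' UTRs of up to 200 nt and 0.384, 0.308 and 0.577 in those over 4000 nt. In 3' UTRs of up to 200 nt the ratio to the CDS of the same transcripts was 0.568, 0.193 and 0.624 in replicates 1, 2 and 3, and in those over 4000 nt it was 0.206, 0.172 and 0.153. In replicates 1 and 3 it declined at every step through the 6 length classes, while in replicate 2 it stayed between 0.164 and 0.245 with no order. Next to the stop codon the class means differed by less than the SD between libraries. Over the first 100 nt the mean ratio to the CDS lay between 0.504 and 0.630 in all 6, with SDs between 0.211 and 0.294. The classes share the libraries, and some pairs kept their order in each. The class over 4000 nt, for example, had 0.724, 0.369 and 0.797 against 0.587, 0.255 and 0.670 in that of 500 to 1000 nt. Over the next 100 nt the mean ratio was 0.227 ± 0.123 in the shortest class, where these bases lie at the 3' end, and between 0.407 and 0.497 in the others. Within the longest class it went from 0.630 ± 0.229 in those 100 nt to 0.240 ± 0.036 between 500 and 1000 nt and 0.113 ± 0.031 beyond 4000 nt (SD, n = 3). In the gene-level test the share called less dense than the CDS was 5.04% of the 575 genes with a 3' UTR of up to 200 nt and 44.0% of the 713 over 4000 nt, although longer regions also give more expected counts and so more power.

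**Figure D4:**
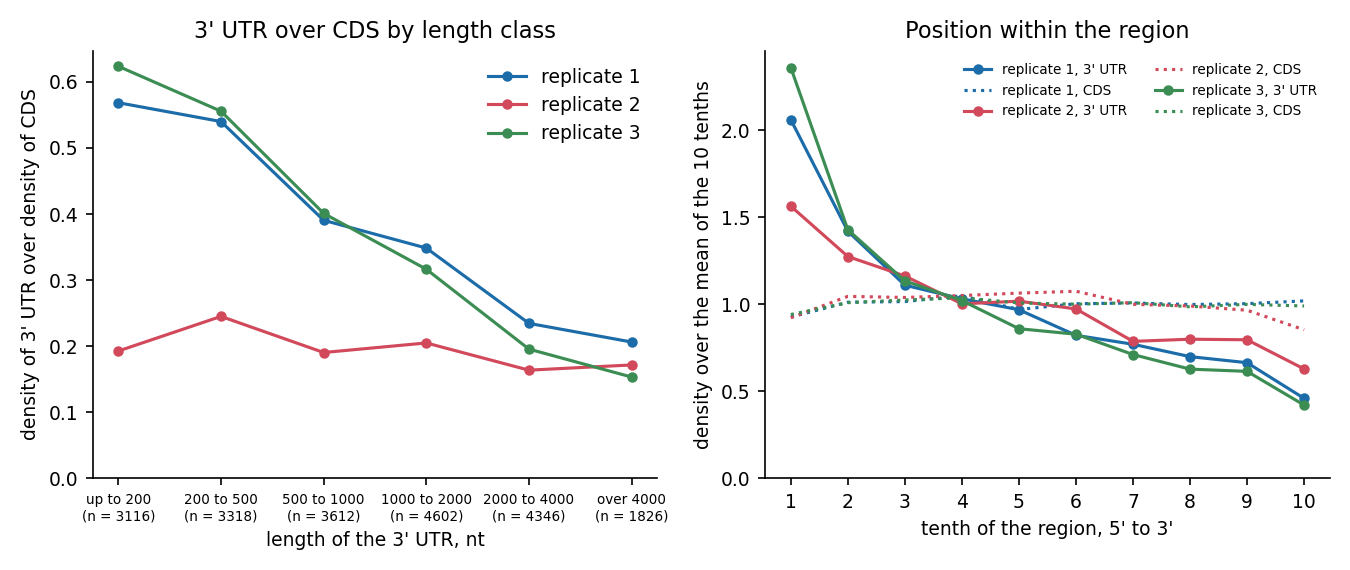
Left, density of the 3' UTR over that of the CDS in 6 classes of 3' UTR length, 1 line per library. Right, density in each of 10 bins of equal length along the 3' UTR (solid lines) and the CDS (dotted lines) over the mean of the 10 bins. The decline of the ratio with length is seen in replicates 1 and 3, and the decline of density along the 3' UTR in all 3 libraries.

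An intron in the 3' UTR, which places a splice junction after the stop codon, made little difference to the ratio. It was 0.279, 0.172 and 0.2501 in the 859 members with such an intron and 0.254, 0.172 and 0.222 in the 19961 without. Both regions were more densely crosslinked in these transcripts, with 1.15, 0.489 and 2.18 crosslinks per kb of 3' UTR against 0.511, 0.322 and 0.904. Within the spliced 3' UTRs the stretch in the exon with the stop codon had 2.26, 1.09 and 4.18 per kb and the later exons 1.09, 0.452 and 2.06 per kb.

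The last question was whether crosslinks in 3' UTRs lay near the Tra2β motif. An AGAA was centred within 30 nt of 36.5%, 42.6% and 36.7% of crosslinked positions in replicates 1, 2 and 3, against 33.9%, 33.9% and 34.4% of all positions of the same 3' UTRs. The ratio was 1.08, 1.26 and 1.07 (1.13 ± 0.11, SD, n = 3), above 1 in each library and largest in replicate 2. In the CDS it was 1.14, 1.32 and 1.11 (1.19 ± 0.11), higher than in the 3' UTR in each library. The excess in 3' UTRs was not confined to the surroundings of the crosslink. For an AGAA centred exactly 50 nt upstream of it, observed over expected was 1.19, 1.03 and 1.19 in replicates 1, 2 and 3. At 50 nt downstream it was 1.15, 1.25 and 1.04. The ratio was not even between these distances. It was 0.486, 0.804 and 0.531 for an AGAA centred on the crosslink. At 7 nt downstream it was 1.18, 2.06 and 1.34, and at 15 nt downstream 1.44, 2.07 and 1.14. Only replicate 2 exceeded both of its values at 50 nt at each of these 2 distances. In the CDS the mean ratio was 1.23 ± 0.07 at 50 nt upstream and 1.09 ± 0.17 at 50 nt downstream (SD, n = 3). AGAA was also less frequent in 3' UTRs, 7.07 per kb against 8.78 in CDS, and 3' UTRs were richer in U (29.7% against 22.4%). Among all 1024 pentamers, written in DNA letters, the 5 highest mean ratios in 3' UTRs were those of GAAGA (1.56 ± 0.32), AGAAG (1.37 ± 0.21), GGAAG (1.35 ± 0.26), GATCG (1.34 ± 0.07) and AAGAA (1.33 ± 0.24). GAAGA was also first in the CDS (1.496 ± 0.280), and AGAAG and AAGAA were among its first 3. All 32 pentamers made only of A and G were above 1 in 3' UTRs, and 29 were in CDS. Pentamers made only of C and U differed between the regions, since 24 of them were above 1 in 3' UTRs and 1 in CDS, with medians of 1.02 and 0.929.

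With the bases of all genes tested pooled, density rose with the number of AGAA nearby, in 3' UTR and CDS alike. In the genes tested, 3' UTR bases with none within 30 nt had 1.32, 0.682 and 2.43 crosslinks per kb, those with 1 had 1.42, 0.861 and 2.61, those with 2 had 1.80, 1.29 and 3.29, and those with 3 or more had 3.08, 2.52 and 5.67. The last group made up 1.27% of 3' UTR bases and 4.35% of CDS bases. At a like number of AGAA the CDS stayed denser. With none nearby the 3' UTR had 0.348, 0.240 and 0.312 of the CDS density, and with 3 or more it had 0.199, 0.161 and 0.189. In this pooled count the gap was thus wider, in each library, where the motif was dense. The genes that supply the bases differ between these groups, and RNA level was not held equal between them.

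**Figure D5:**
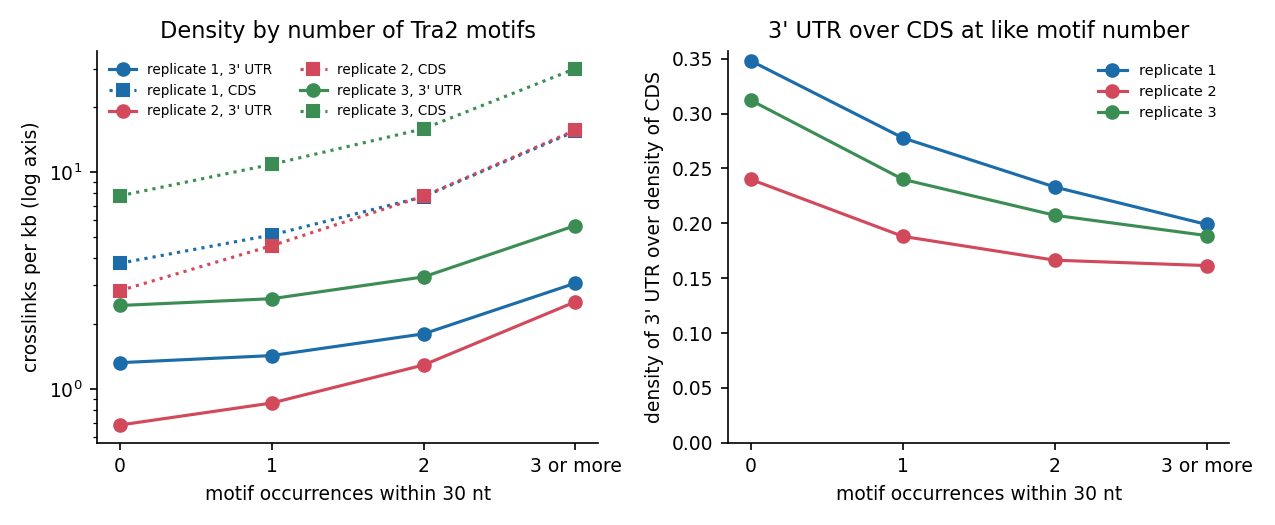
Left, crosslinks per kb (log axis) in 3' UTR (solid) and CDS (dotted) bases by the number of Tra2 motifs centred within 30 nt, 1 line per library. Right, the density of the 3' UTR over that of the CDS for the same bases. Bases are pooled over all genes tested. Density rises with the motif number in both regions, and the ratio falls from between 0.240 and 0.348 to between 0.161 and 0.199.

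The crosslinked nucleotide itself was most often U, 51.4%, 38.4% and 52.3% of positions in replicates 1, 2 and 3 against 29.8%, 28.97% and 29.98% expected from the same 3' UTRs. Crosslinking by ultraviolet light is known to favour uridine. A was crosslinked less often than its frequency, 14.5%, 21.4% and 14.5% against 27.2%, 27.1% and 27.4%. In the CDS U made up 37.0%, 32.2% and 37.1% of crosslinked positions against 21.6%, 21.4% and 21.6% expected, a mean ratio of 1.64 ± 0.12 against 1.60 ± 0.24 in 3' UTRs (SD, n = 3).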

How the data were processed

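Per the labels and the study's methods, the 3 iCLIP libraries came from adult wild type mouse testis. The authors' processing ran on the iMAPS platform, and the submitters' processing notes name Trim Galore 0.6.7, Bowtie 1.3.1, STAR 2.7.9a, UMI-tools 1.1.2 and the build mm39 (GRCm39). How multi-mapping reads were handled is not given in the sources used here. Per the files, what the authors deposited are counts of unique cDNAs per crosslinked position and strand, not normalized, and they sum to 348033, 619571 and 488719 in replicates 1, 2 and 3.

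These counts were summed over 3' UTR, CDS (stop codon included), 5' UTR and introns of the canonical transcript of each protein-coding gene. Genes with at least 10 crosslinks in the 2 regions and at least 50 nt in each were tested with edgeR 4.0.16 (quasi-likelihood, library as a block, region length as offset, Benjamini-Hochberg over all genes tested), at equal density and relative to the overall ratio of each library. The proximal and distal parts of 3' UTRs of at least 400 nt, divided at the middle, were tested in the same way. The SE printed with a log2 ratio is the size of that ratio divided by the square root of the F statistic of the test. The tests were tried on simulated data. Named genes are the 10 highest and 10 lowest ratios past the threshold in each test with at least 20 crosslinks, denser in the same region in all 3 libraries, the 10 leading 3' UTRs, and members of the gene lists; others are said to be chosen after their values were seen. Motifs were counted within 30 nt of crosslinked positions against all positions of the same regions, weighted by crosslinked positions per gene. Alternatives covered the filters, positions counted once, DESeq2 1.42.0, a binomial test in each library, the block, TMM centring, bases shared between genes, the CDS of the stop codon exon, window sizes and each library left out. The values of 1 of the 10 leading 3' UTRs and 1 window sequence are not reported here. The members and lists were chosen with earlier results of these data known. R 4.3.3, Python 3.11.15, numpy 2.4.6, pandas 2.3.3, numba 0.67.0 and matplotlib 3.10.9 were used.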

Additional observations from a re-analysis of the deposited data

How the results depend on the processing

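The share, the density over the CDS, the ratio of first to last bin, the length classes and the AGAA ratio moved by less than 1 SD between libraries under every alternative run. This is a wide limit, since the SD includes the distance of replicate 2 from the others. Leaving out 1 of 3 libraries cannot move a mean by 1 SD, so those runs could not fail it and are given as ranges. With each library left out, the share lay between 3.38% and 5.67%, the ratio to the CDS between 0.198 and 0.240, that of first to last bin between 3.49 and 5.05 and the AGAA ratio between 1.07 and 1.17. Counts of called genes moved more, and the cause was not tested. At equal density (35 denser, 1515 less dense) the numbers were 20 denser with no filter, 13 denser without shared bases, 8 and 928 with DESeq2, 1 and 393 with the binomial test in each library, 8 and 751 with no replicate block, and 4 and 380 against the CDS of the stop codon exon. With each library left out they ranged from 0 to 2 and from 0 to 198. Relative to the overall ratio (374 and 189) they were 108 and 528 with TMM centring, 176 and 73 with DESeq2, 45 and 15 with the binomial test, 115 and 28 with no replicate block, 128 and 54 against the stop codon exon, 107 less dense with no filter, and from 44 to 472 and from 9 to 226 with each library left out. For the proximal against the distal part (0 and 0) they were 74 and 1 with at least 30 crosslinks, 14 and 1 with DESeq2 and 1 and 0 with the binomial test. Without crosslinks in repeated sequence, an alternative chosen after seeing the data, 31 and 1526, 377 and 188, and 0 and 0 were called. Pcdhga9 and Pcdhga4 turned to -0.80 against the stop codon exon. Among the named ratios, 81 lost their call with a library left out and 39 kept it. At equal density none could keep it without replicate 2 or without replicate 3, since no gene tested was called there. Under the other alternatives 49 lost it and 251 kept it. In single 3' UTRs depth is low, and the 11613 without a crosslink include any whose RNA is not made in testis.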

Other observations

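Replicate 2 had other leading 3' UTRs than replicates 1 and 3. After Tfcp2l1, its highest were Nopchap1, which has the longest 3' UTR of all at 122583 nt, with 19, 55 and 27 crosslinks in replicates 1, 2 and 3, the DNA repair gene Uvssa with 23, 49 and 22, and Lars2 with 6, 47 and 11.

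The annotation places 40 small RNA genes inside 41 of the 3' UTRs, and 7 of them held crosslinks, 144 in all, of which 129 lay in small nuclear RNA genes. Apart from those in Tfcp2l1 and Rnf225, the highest was the 5S rRNA gene n-R5s185 in the 3' UTR of Tmem38b, with 0, 9 and 1 of the 17 crosslinks there. The first 16 nt after the crosslink were found in a small RNA gene for 0.314%, 1.75% and 0.410% of 3' UTR crosslinks, against 0.066%, 0.103% and 0.068% in the CDS.

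The 25 positions crosslinked in all 3 libraries lay in 16 genes, with 4 each in Rnf225 and Tsbp1 and 2 each in Akap12, Clec2m and Cylc2. Protamine and transition protein genes (Prm1, Prm2 and Tnp2) had 1 each.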
